A study of Mus musculus with 1 sample.

Results

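The genes described here are the ligands and receptors of vascular endothelial growth factor (VEGF) signaling, namely the ligands Vegfa, Vegfb, Vegfc and Pgf, the related vessel factor Angpt2, the receptors Flt1 and Kdr and the co-receptors Nrp1 and Nrp2. The 9 genes were chosen by name, not by their values, from the 32285 genes counted, and all 9 had at least 20 unique transcript molecules (UMIs) in the cells kept. Control MC38 tumors, grown under the skin of C57BL/6J mice from a mouse colon cancer cell line, were dissociated, and cells of 5 tumors were pooled and sequenced as 1 droplet library with a 3' tag chemistry. The study bought its mice as females of 4 to 6 weeks and compared such controls, which carry a non-targeting hairpin (shNTC), with tumors in which Atp6v0a1 was knocked down. The label of this library gives the genotype as WT without naming a hairpin, it was taken as the control pool, and the knockdown pool was not analysed here. Cells carry no mark of their tumor, so there is 1 sample without replicates, no test was possible, and each interval is an exact 95% interval that covers counting error only.

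In VEGF signaling, Vegfa is released by cells short of oxygen and binds Kdr, the receptor that drives endothelial growth and sprouting. Flt1 binds Vegfa, Vegfb and Pgf tightly and also exists as a soluble trap, while Vegfc acts mainly on lymphatic vessels through Flt4. Nrp1 and Nrp2 are co-receptors shared with the semaphorins, and Angpt2, made by activated endothelium, loosens vessels through the receptor Tek. Tags at the 3' end of transcripts do not separate splice forms, so soluble Flt1 and the forms of Vegfa were counted together with the rest.

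The genes lie on 6 chromosomes in the GRCm38 build used for counting. By GENCODE M21, Vegfa spans 46016993 to 46032369 of chromosome 17, Flt1 147561604 to 147726011 and Kdr 75932827 to 75978458 of chromosome 5. Vegfb is at 6982473 to 6987651 of chromosome 19, Pgf at 85166635 to 85177790 of chromosome 12 and Nrp2 at 62703285 to 62818695 of chromosome 1, while Vegfc (54077606 to 54187096), Angpt2 (18690263 to 18741562) and Nrp1 (128358604 to 128503363) share chromosome 8.

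Promoter sequence was matched by symbol for 8 of the 9 genes in the RefSeq annotation of GRCm38.p6, and Angpt2 was not matched. Vegfa is shown as the ligand of most interest, and Flt1 and Kdr as the receptors that were highest in endothelial cells, each as the 250 bases before its RefSeq start, read 5′ to 3′ on the strand of the gene. Capitals mark the GC box (letters GGGCGG on either strand) in Vegfa and the core of ETS factor sites (GGAA on either strand) in Flt1 and Kdr. The windows lie at chr17:46032378-46032627, chr5:147726012-147726261 and chr5:75978456-75978705, all on the minus strand.
Vegfa: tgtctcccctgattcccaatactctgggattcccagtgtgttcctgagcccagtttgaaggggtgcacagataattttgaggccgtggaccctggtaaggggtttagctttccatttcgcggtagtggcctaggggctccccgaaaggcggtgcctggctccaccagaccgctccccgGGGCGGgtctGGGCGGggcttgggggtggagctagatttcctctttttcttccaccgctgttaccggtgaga
Flt1: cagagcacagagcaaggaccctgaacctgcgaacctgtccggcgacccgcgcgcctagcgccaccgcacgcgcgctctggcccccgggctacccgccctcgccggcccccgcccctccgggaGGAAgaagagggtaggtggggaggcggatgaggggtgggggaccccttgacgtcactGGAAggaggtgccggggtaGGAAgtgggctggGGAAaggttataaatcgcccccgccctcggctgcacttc
Kdr: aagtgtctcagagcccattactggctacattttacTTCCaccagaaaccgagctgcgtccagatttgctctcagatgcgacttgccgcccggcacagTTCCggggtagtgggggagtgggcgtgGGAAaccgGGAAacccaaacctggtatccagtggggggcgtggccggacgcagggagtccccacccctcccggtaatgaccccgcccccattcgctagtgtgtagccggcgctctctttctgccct

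The Vegfa window held 2 GC boxes, and at least 1 was present in 32.74% of 32851 such windows. Counting any start of a gene, it was present in 35.36% of 27025 genes with a promoter entry. Flt1 and Kdr each held 4 ETS cores, a short motif present in 93.45% of these windows and 94.21% of these genes. The Vegfa window also held 6 ETS cores, and the Flt1 and Kdr windows 3 and 2 GC boxes, which are not marked. The core of the hypoxia response element (ACGTG or GCGTG on either strand) was not found in the Vegfa window shown but occurred 2 times before a second Vegfa start, 1 time before Flt1 and 2 times before Kdr. It was present in 41.54% of all genes and in 18 of 19 genes of the list of hypoxia-induced genes used below that had a promoter entry. The GC box was also in 18 of these 19 genes, and the ETS core in 17. Each motif was counted on its own, so matches of different motifs may overlap, and a match is a description of letters and not a bound site.

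The library held 5307 called cells and 106631000 UMIs, between 511 and 231902 per cell, and 4468 cells with a median of 10442 UMIs were kept. Cells were clustered without the 9 genes and the listed pathway, hypoxia and angiogenic genes, and clusters were named from marker genes. Tumor cells (1856 cells) were recognized by Shisal2b and Rhox5 and split by the collagen gene Col3a1. Although the label calls the MC38 line epithelial, the epithelial markers Krt8, Krt18 and Epcam had only 7, 0 and 5 UMIs in all tumor cells. The macrophage-like cells (1272 cells) were divided into states led by Arg1, Spp1 and Mmp12 (340 cells), by Cxcl9 and interferon genes (425 cells), by Fosb (231 cells), by proliferation genes (188 cells), by Mcm3 (69 cells) and by Lyve1 (19 cells). Monocyte-like (241), T and NK-like (164), DC-like (36) and granulocyte-like (30) cells were also found. The vessel wall was represented by few cells. There were 27 endothelial-like cells with all 9 endothelial markers raised, 12 pericyte-like cells with all 9 pericyte markers raised and 40 fibroblast-like cells. A further 790 cells sat in unnamed, erythroid or lung epithelial clusters.

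**Figure D1:**
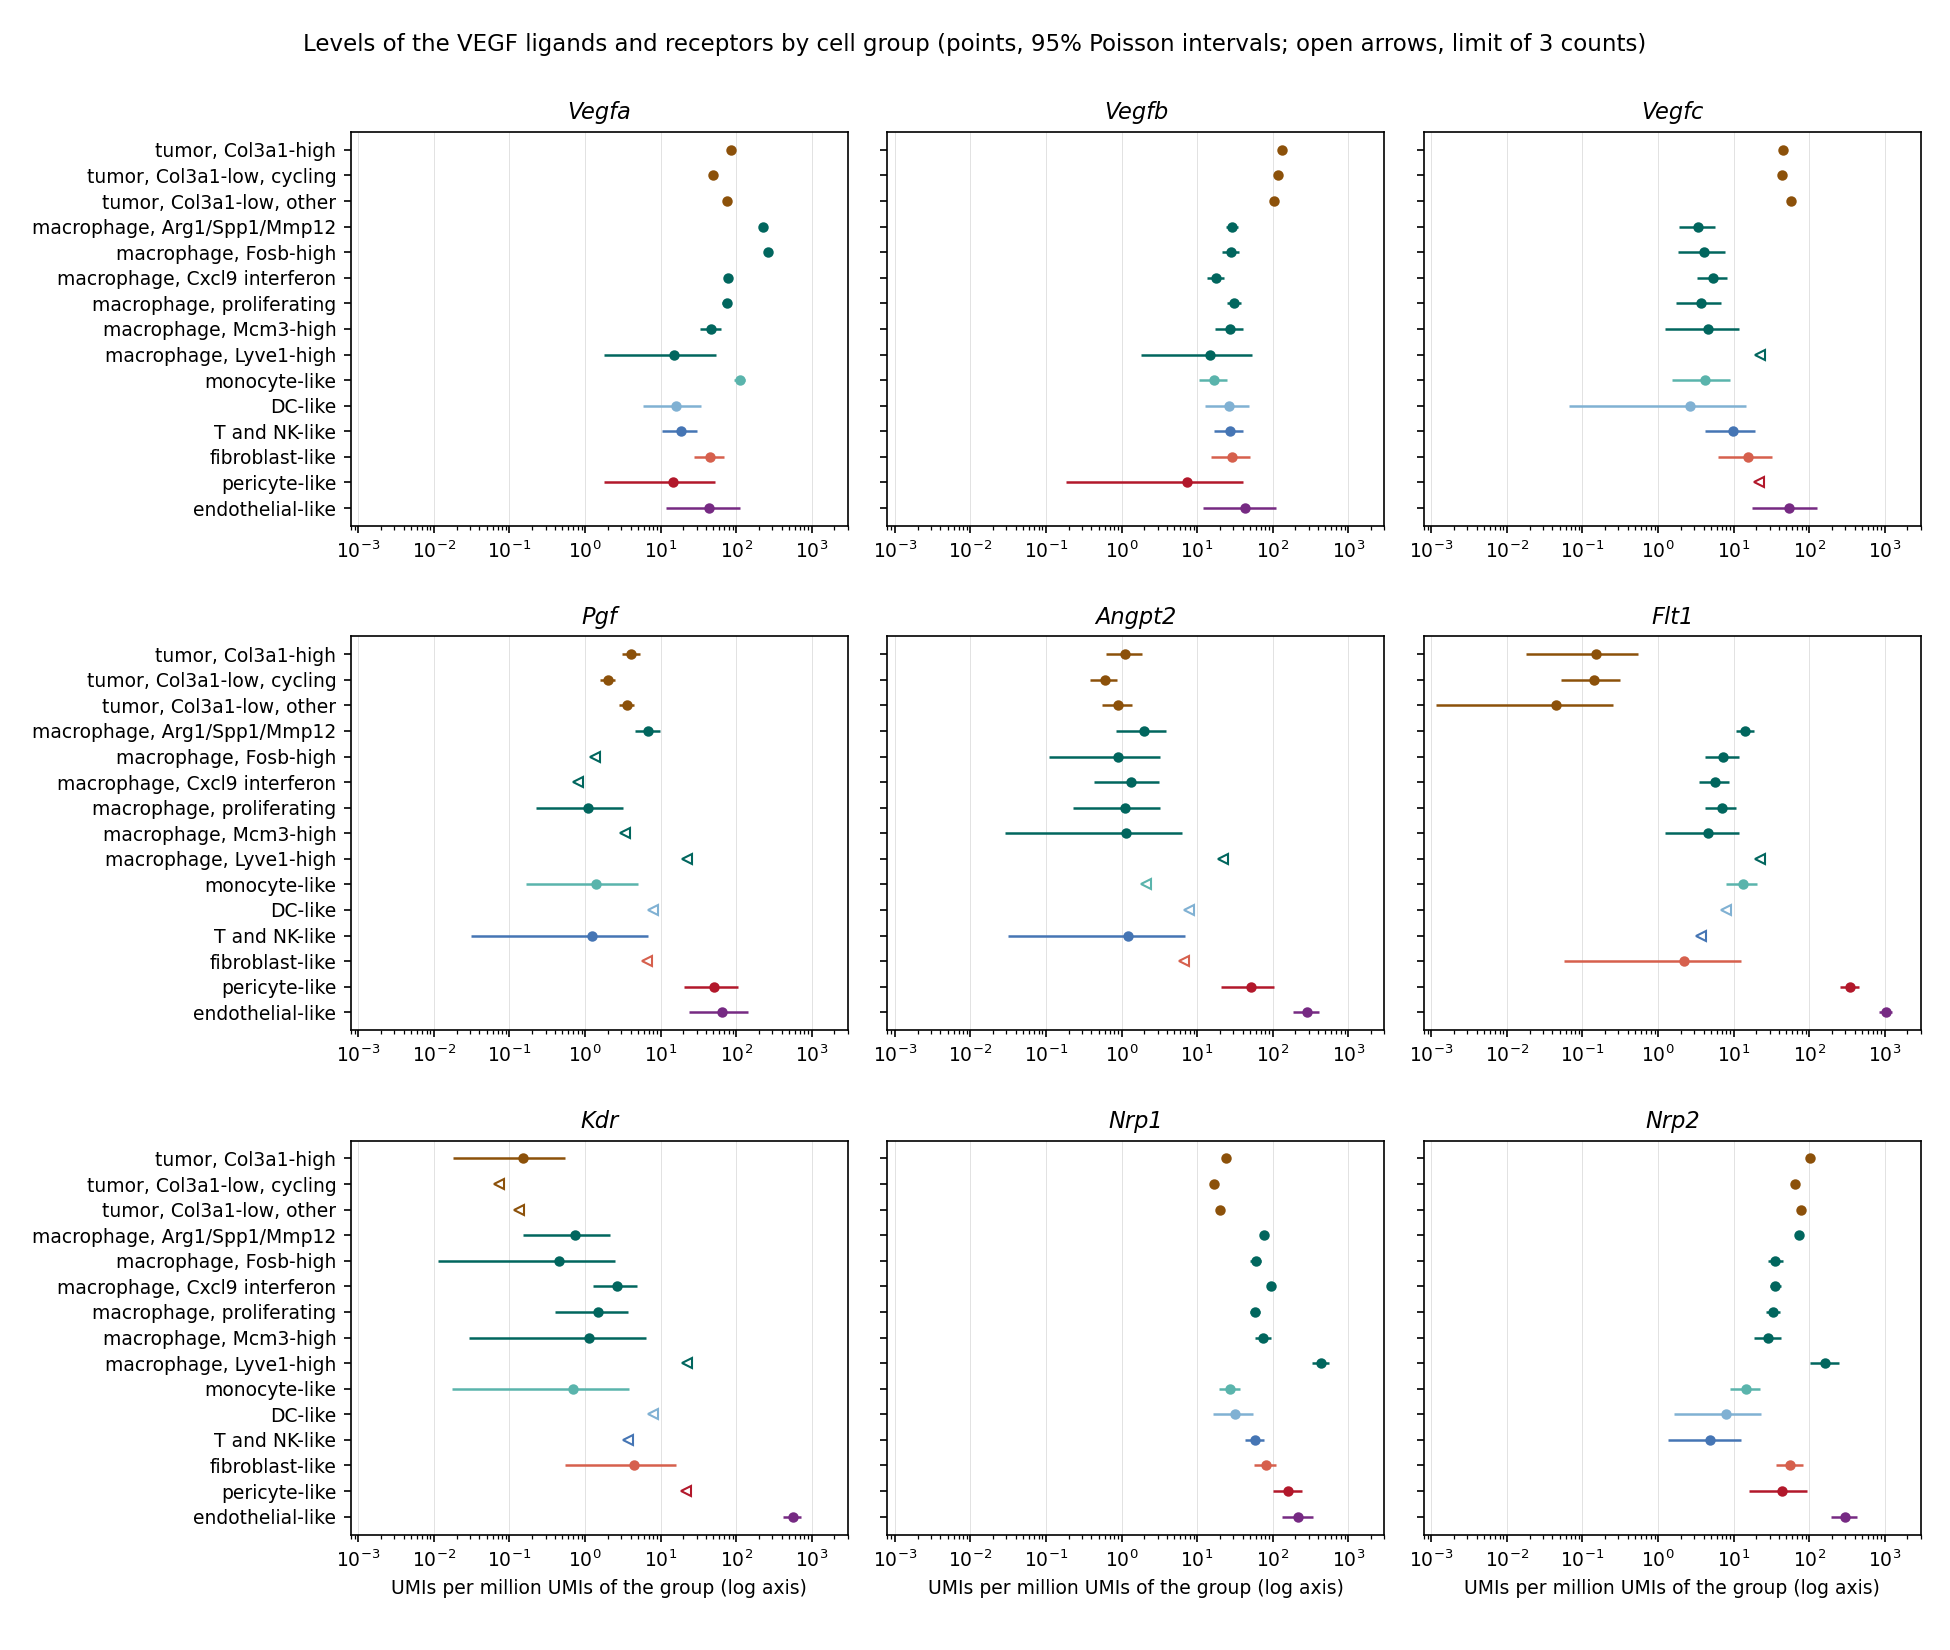
Level of each gene in each cell group, in CPM (UMIs per 1000000 UMIs of the group) on a log axis. Points are summed levels, bars exact 95% Poisson intervals, open arrows the limit of 3 counts where 0 were seen, and 30 shallow granulocyte-like cells are not drawn. Among the groups drawn, Vegfa peaks in the Fosb-high and Arg1/Spp1/Mmp12 macrophages, Vegfb and Vegfc in tumor cells, and Angpt2, Flt1 and Kdr in endothelial-like cells.

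Among the 16 named groups, Vegfa was highest in the Fosb-high and Arg1/Spp1/Mmp12 macrophages. To allow for depth, the UMIs of a gene in all cells of a group were divided by the total of the group and scaled to 1000000 (CPM). Vegfa stood at 264 CPM (243 to 287, 586 UMIs) in Fosb-high macrophages and 229 CPM (214 to 244, 934 UMIs) in Arg1/Spp1/Mmp12 macrophages. The first exceeded the second by 1.15 times (1.04 to 1.28), and both were far above the remaining large groups. A shallow cluster within the Col3a1-high tumor cells (112 cells) had a higher level, 334 CPM, and an unnamed cluster of 77 cells had 318 CPM from 49 UMIs (235 to 420.3). Monocyte-like cells followed with 111 CPM (94.5 to 129.6). Then came the Col3a1-high tumor cells with 84.9 CPM, the Cxcl9 macrophages with 77.2, the non-cycling Col3a1-low tumor cells with 76.4 and the proliferating macrophages with 75.0, and the intervals of the ratios between neighbors in this order held 1. Cycling Col3a1-low tumor cells had 49.7 CPM. Vegfa was lowest in T and NK-like cells (18.4 CPM), DC-like cells (15.8), Lyve1-high macrophages (14.9, 2 UMIs) and pericyte-like cells (14.6, 2 UMIs), and the ratios between neighbors there also had intervals that held 1. The granulocyte-like cells had 125 CPM, from 4 UMIs in 1 cell.

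Tumor cells, which were numerous and deep, nevertheless held most Vegfa molecules. Of the 7410 Vegfa UMIs, 66.2% were in tumor cells, 27.8% in macrophages and 2.16% in monocyte-like cells. A Vegfa UMI was seen in 71.6% of tumor cells (median 38542 UMIs) and in 53.1% of macrophages (median 10079.5 UMIs). Every cell with at least 1000 UMIs was then thinned at random to 1000 UMIs, which left out 461 of the 4468 kept cells. The shares came to 7.31% of tumor cells and 14.2% of macrophages. T and NK-like cells, which serve as a low reference, had 1.504% (2 of 133 cells). The thinned shares were 22.9% in Fosb-high and 22.4% in Arg1/Spp1/Mmp12 macrophages.

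**Figure D2:**
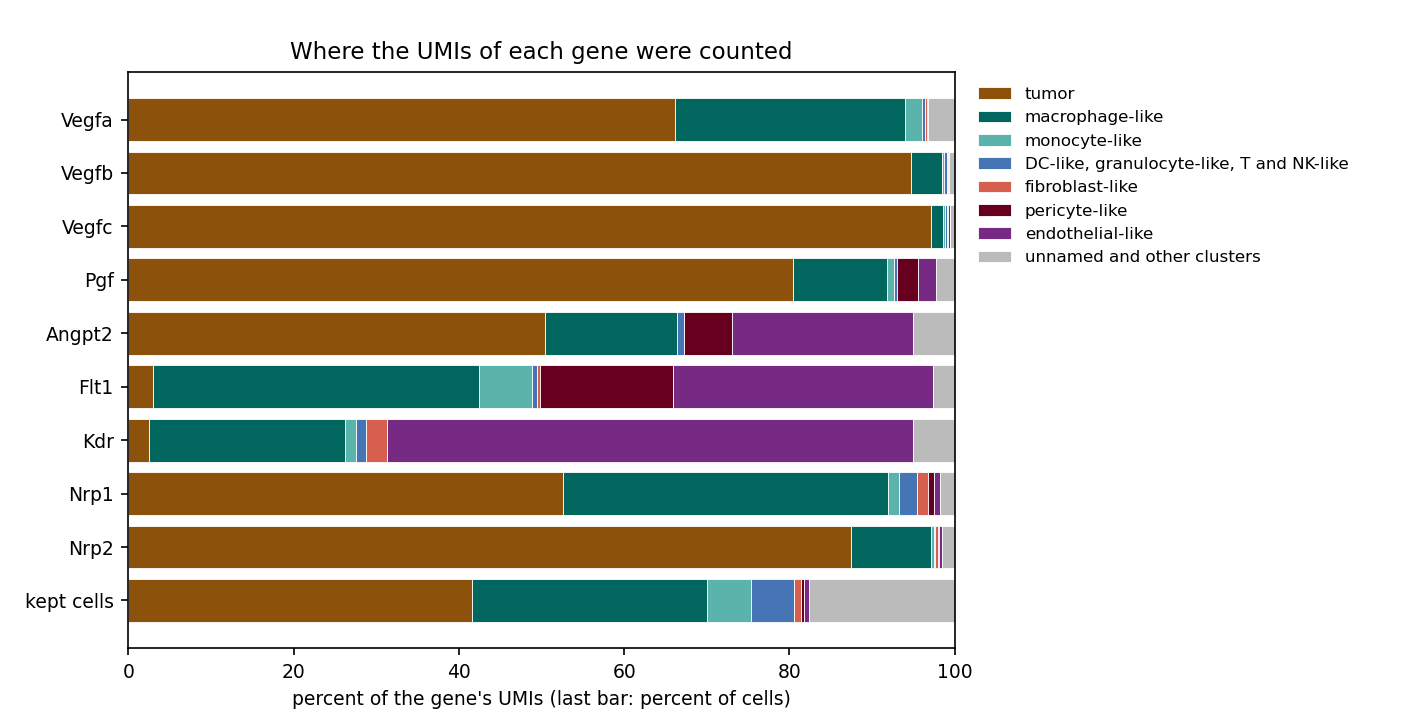
Share of the UMIs of each gene counted in each cell class, in percent, and the last bar gives the share of kept cells. Tumor cells hold 94.7% of Vegfb and 97.1% of Vegfc UMIs but 3.01% of Flt1 UMIs, and the 27 endothelial-like cells hold 63.8% of Kdr UMIs.

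Vegfb and Vegfc were mainly tumor cell transcripts. Vegfb, a ligand of Flt1, was at 132.7 CPM in Col3a1-high, 117 in cycling Col3a1-low and 104 in other Col3a1-low tumor cells, which together held 94.7% of its UMIs. Macrophages had 26.0 CPM of Vegfb (23.3 to 28.8, 358 UMIs), with 17.6 in the Cxcl9 state and between 27.3 and 30.7 in the Arg1/Spp1/Mmp12, Fosb-high, proliferating and Mcm3-high states. Vegfc, the lymphatic ligand, stood between 43.5 and 56.9 CPM in the 3 tumor groups, which held 97.1% of its UMIs, and at 4.13 CPM (57 UMIs) in macrophages. Outside tumor cells Vegfc was highest in endothelial-like cells, with 54.6 CPM from 5 UMIs (17.7 to 127). Transcripts that mark tumor cells were counted at a low level in the other groups too. In macrophages the tumor transcripts Rhox5 and Shisal2b were at 5.71% and 6.75% of their tumor cell level, Vegfc at 8.67% and Vegfb at 22.4%. In monocyte-like cells the values were 7.80%, 12.5%, 8.73% and 14.4%. In macrophages and monocyte-like cells Vegfc thus lay near the level of these tumor transcripts, and Vegfb in macrophages lay above it. This level of Vegfb was not limited to macrophages. It was at 23.3% in T and NK-like cells (22 UMIs), 22.8% in DC-like cells (10 UMIs) and 6.28% in pericyte-like cells (1 UMI). Vegfc was at 20.6% in T and NK-like cells (8 UMIs), where Rhox5 and Shisal2b were at 8.15% and 13.7%, and at 114.5% in endothelial-like cells, where they were at 7.87% and 10.1%. The part of free tumor RNA in these levels was not tested.

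Pgf and Angpt2 were sparse. Pgf, placental growth factor and a ligand of Flt1, had 270 UMIs in all, of which 80.4% were in tumor cells at 2.81 CPM (2.45 to 3.21). It was highest in endothelial-like cells, with 65.5 CPM from 6 UMIs in 2 cells, and in pericyte-like cells, with 51.0 CPM from 7 UMIs in 5 cells. Among macrophages it was almost restricted in counts to the Arg1/Spp1/Mmp12 state, with 28 UMIs in 10 cells (6.86 CPM, 4.56 to 9.92), of which 1 cell held 9. Pgf had 3 UMIs in proliferating macrophages and 0 in the Cxcl9, Fosb-high, Mcm3-high and Lyve1-high states. Angpt2 reached 284 CPM in endothelial-like cells (186 to 416, 26 UMIs in 7 cells) and 51.0 CPM in pericyte-like cells (7 UMIs in 4 cells). In tumor cells Angpt2 was at 0.776 CPM, yet their 60 UMIs were 50.4% of all Angpt2 counted.

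The receptors were concentrated in the vessel wall. Kdr, the main signaling receptor, was at 557 CPM in endothelial-like cells (415 to 732), with 51 UMIs in 16 of 27 cells. Outside them only 29 Kdr UMIs were found, among them 19 in macrophages (1.38 CPM, 0.830 to 2.15) and 2 in tumor cells (0.0259 CPM). Kdr was not seen in 164 T and NK-like cells, where 3 counts would be 3.69 CPM, nor in the pericyte-like cells, where they would be 21.8 CPM.

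Flt1 was spread more widely than Kdr. It reached 1027 CPM in endothelial-like cells (830 to 1256, 94 UMIs in 18 cells) and 349.6 CPM in pericyte-like cells (258 to 464, 48 UMIs in 5 cells). Macrophages had 8.56 CPM (7.09 to 10.3), and their 118 UMIs were 39.5% of all Flt1 counted. Among them the Arg1/Spp1/Mmp12 state was at 14.2 CPM (10.8 to 18.4, 58 UMIs) and the remaining large states between 5.61 and 7.22 CPM. Monocyte-like cells stood at 13.2 CPM (7.94 to 20.6, 19 UMIs). In tumor cells Flt1 had 9 UMIs (0.116 CPM), and in T and NK-like and DC-like cells it had 0, although 3 counts would be 3.69 and 7.92 CPM there. Of the 9 endothelial markers, macrophages had 2 raised, namely the adhesion molecule Pecam1 (308 UMIs) and the co-receptor Eng (582 UMIs). The fatty acid carrier Fabp4 was not raised but had 127 UMIs (9.21 CPM, against 29.2 CPM in all other cells). Egfl7 had 22 UMIs, the junction gene Cdh5 9, Plvap and Emcn 4 each, Esam 3 and Cldn5 2. Endothelial-like cells held 91 UMIs of Pecam1, 87 of Eng, 467 of Fabp4, 126 of Egfl7, 90 of Cdh5 and 153 of Plvap beside their 94 of Flt1. The summed level of the markers was 77.0 CPM in macrophages and 12812 CPM in endothelial-like cells, and the part of endothelial RNA in the Flt1 of macrophages was not tested.

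**Figure D3:**
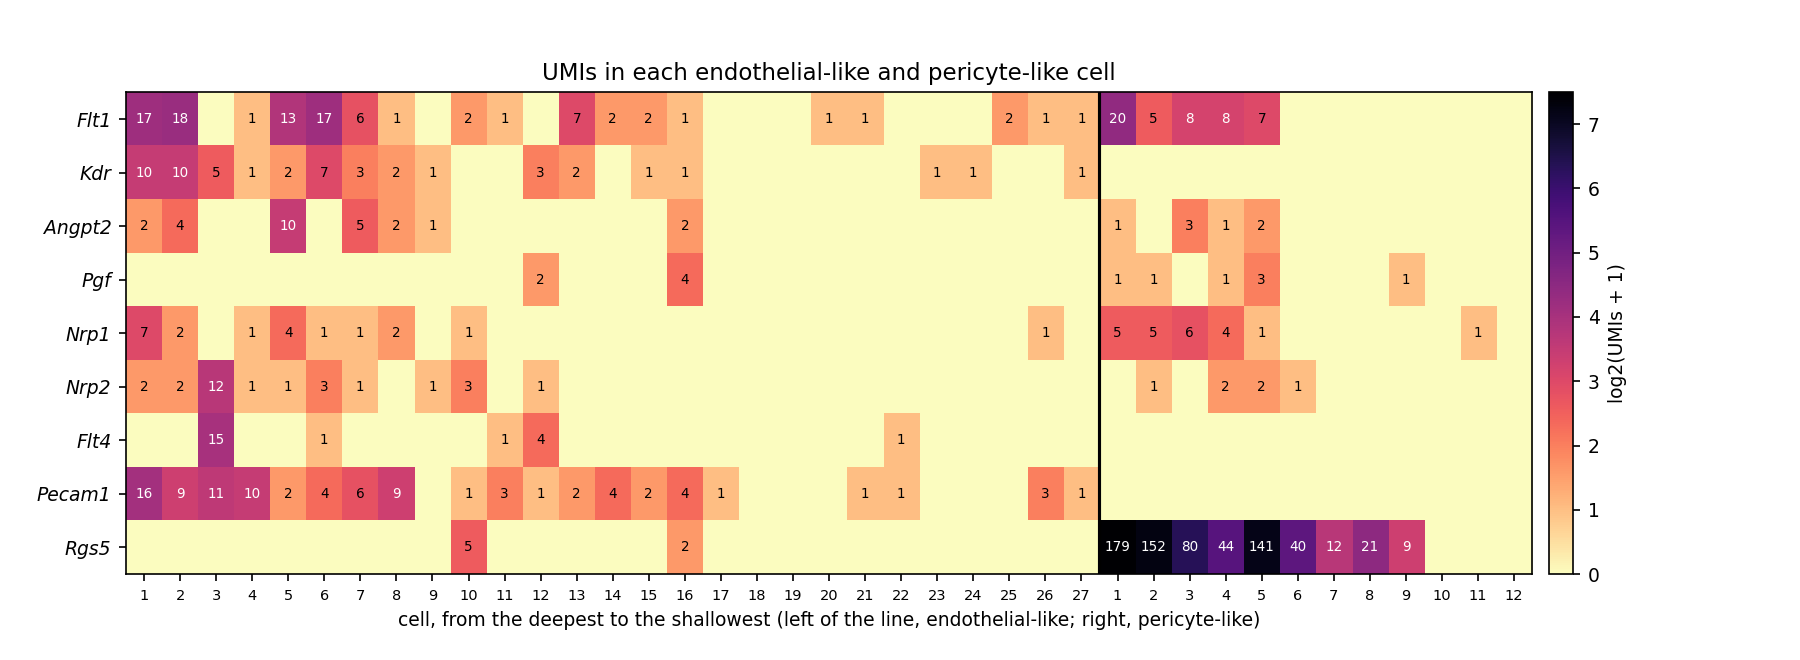
UMIs of 6 of the VEGF genes, of Flt4 and of a marker of endothelial cells (Pecam1) and of pericytes (Rgs5) in each of the 27 endothelial-like and 12 pericyte-like cells, ordered by depth. Color is log2(UMIs + 1) and unlabelled squares hold 0. Kdr is limited to the endothelial-like side, while Flt1 has between 5 and 20 UMIs in each of the 5 deepest pericyte-like cells.

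Cell by cell, 11 of the 27 endothelial-like cells had UMIs of both Flt1 and Kdr, 7 of Flt1 alone, 5 of Kdr alone and 4 of neither. Of the 13 with over 2000 UMIs, 10 had Flt1, 11 Kdr, 10 Nrp2, 8 Nrp1 and 6 Angpt2. A single cell with Prox1, a regulator of lymphatic identity, carried 15 UMIs of Flt4, 12 of Nrp2, 5 of Kdr and 0 of Flt1, beside 37 of Lyve1 and 810 of Ccl21a. Without this cell, Nrp2 in the endothelial-like cells fell from 295 to 191 CPM and Flt4 from 240.3 to 88.9 CPM, while Flt1 was 1194 and Kdr 584. A further pair of cells had no Prox1 and no Flt1 but carried Ccl21a (104 and 53 UMIs) and Lyve1 (5 and 8), and the second of them had 4 UMIs of Flt4. Without all 3 cells with over 10 UMIs of Ccl21a, Nrp2 was at 177 CPM, Flt4 at 40.9, Flt1 at 1282 and Kdr at 573. In the pericyte-like group, the 5 deepest cells held 87.3% of the UMIs and all 48 UMIs of Flt1. These cells had 0 UMIs of Kdr, Pecam1 and Cdh5, although 3 counts in so few cells is a limit of 21.8 CPM. Of the 9 endothelial markers, 5 were at 0 in the pericyte-like group and 3 were raised, namely the fatty acid carrier Fabp4 (112 UMIs), the adhesion molecule Esam (31 UMIs) and Eng (29 UMIs). Their summed level was 1267 CPM, and the part of endothelial RNA in the Flt1 of this group was not tested.

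Nrp1 was highest in a small macrophage state. The 19 Lyve1-high macrophages, named from a marker of perivascular and tissue-resident macrophages, had 432 CPM of Nrp1 (328 to 558, 58 UMIs), with a UMI in 73.7% of cells. Endothelial-like cells had 218 CPM (133 to 337), pericyte-like cells 160.2 (100.4 to 242.6), Cxcl9 macrophages 95.9 and fibroblast-like cells 80.5. Other macrophage states lay between 58.9 and 76.0 CPM. Tumor cells had 18.8 CPM but 52.6% of all Nrp1 UMIs. Among the T and NK-like cells (57.8 CPM, 47 UMIs), the 60 cells with a UMI of Cd8a had 103 CPM (72.8 to 143) and the other 104 cells 21.9 CPM (10.5 to 40.3), at median depths of 5672 and 2908.5 UMIs. Of the 47 UMIs, 10 were in 1 cell. Nrp1 is known from regulatory T cells, and the 20 cells with a UMI of their factor Foxp3 held 3 Nrp1 UMIs (35.5 CPM, 7.33 to 103.9). That wide interval covers the 60.3 CPM of the cells without a UMI of Foxp3.

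Nrp2 had another distribution. It was at 295 CPM in endothelial-like cells (194 to 429, 27 UMIs, of which 12 came from the Prox1 cell) and at 164 in Lyve1-high macrophages (103 to 248). Col3a1-high tumor cells stood at 101.7 CPM, other Col3a1-low tumor cells at 78.6 and cycling ones at 65.4, and tumor cells held 87.4% of the UMIs. Arg1/Spp1/Mmp12 macrophages (72.8 CPM) were close to the tumor cells, while the Fosb-high, Cxcl9 and proliferating states were between 33.3 and 35.8 CPM. Monocyte-like cells (14.6 CPM) and T and NK-like cells (4.92 CPM) were lowest among the larger groups. In macrophages Nrp2 was at 62.3% of its tumor level, where Rhox5 and Shisal2b were at 5.71% and 6.75%. The part of free tumor RNA in this Nrp2 level was not tested.

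When the groups were put in order of level, most neighbors could not be told apart by counting. For Vegfc the ratio between neighbors held 1 at all 13 steps with UMIs on both sides, and for Vegfb at 14 of 15. Flt1 in endothelial-like cells exceeded that in pericyte-like cells 2.94 times (2.05 to 4.25), Angpt2 5.57 times (2.35 to 15.2), and the 1.29 times for Pgf was within counting error. Nrp1 in Lyve1-high macrophages exceeded that in endothelial-like cells 1.98 times (1.17 to 3.47), whereas Nrp2 was higher in endothelial-like cells by 1.80 times with an interval that held 1.

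Arg1/Spp1/Mmp12 macrophages were compared with Cxcl9 macrophages, the first led by genes of arginine use and matrix remodeling and the second by an interferon-induced chemokine. Vegfa was 2.97 times higher in the Arg1/Spp1/Mmp12 state (2.60 to 3.40), Flt1 2.53 times (1.515 to 4.397), Nrp2 2.03 times (1.65 to 2.51), and Pgf at least 8.57-fold higher, with 28 UMIs against 0 and 3 counts taken as the floor. Vegfb was 1.67 times higher (1.23 to 2.29), and Nrp1 was lower at 0.792 times (0.679 to 0.925). A gene was called when its levels differed at least 2-fold with at least 20 UMIs over both groups. Of the 7 VEGF genes with enough UMIs, 4 were called higher and 0 lower, where 8.97% of 10013 genes were called, 3.61% higher and 5.36% lower. Of 20 hypoxia-induced genes, 13 were called higher and 0 lower, and their median log2 ratio was 1.33 against -0.08 for all genes. Those called included Hilpda, a lipid droplet protein (12.6 times), Egln3, an oxygen-sensing prolyl hydroxylase (11.3), Adm, a vasoactive peptide (11.1), Ero1l, an oxidase of the endoplasmic reticulum (7.25), Ndrg1 (6.11) and the glucose transporter Slc2a1 (4.88). Of the other angiogenic factors, 2 of 8 tested were higher, namely the matrix protein Thbs1, known as an inhibitor of angiogenesis (3.11 times), and the Notch ligand Jag1 (2.42). The ratio of Vegfa moved between 1.93 and 4.34 when cells were filtered or clustered in other ways, and that of Flt1 between 1.14 and 12.5, where 12.5 rests on 10 against 1 thinned UMIs. Flt1 was under 2-fold in 3 of the 10 alternatives, and Nrp2, with a range of 1.53 to 2.25, in 4 of them. Vegfb had a range of 1.22 to 3.44 and passed 2-fold at a resolution of 0.8 among others (2.02, 108 against 19 UMIs). Nrp1 turned its direction to 1.34 after thinning and lay between 0.370 and 0.945 otherwise.

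Fosb-high macrophages differed at least 2-fold from Cxcl9 macrophages only in Vegfa among the VEGF genes tested. Vegfa was 3.43 times higher (2.97 to 3.96), Nrp1 was 0.626 times (0.509 to 0.766) and Nrp2 0.996 times (0.744 to 1.32). Of 6 VEGF genes tested, 1 was called higher and 0 lower, with 4.55% of 9663 genes called, 2.22% higher and 2.33% lower. Of the hypoxia-induced genes 9 of 20 were called higher, led by Egln3 (4.34) and Hilpda (3.53), and Thbs1 was 4.66 times higher. The immediate early genes Fosb, Fos, Jun and Atf3, which respond within minutes to growth factors and to stress, were at 593, 2195, 1307 and 680.0 CPM in this state, against 189, 929, 695 and 211 CPM in the Cxcl9 state. The heat shock gene Hspa1a was lower, at 315 against 408 CPM. In this pair the immediate early genes were higher where Vegfa was higher. The Arg1/Spp1/Mmp12 state had Fosb, Fos, Jun and Atf3 at 220, 1005, 583 and 314 CPM, with Vegfa at 229 CPM. The proliferating state had them at 263, 1211, 749 and 310 CPM, with Vegfa at 75.0 CPM. The part of these genes in the Vegfa level was not tested. The nuclear RNA Malat1 was at 14034 CPM in the Fosb-high, 11165 in the Arg1/Spp1/Mmp12 and 11671 in the Cxcl9 state.

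Lyve1-high macrophages showed the opposite arrangement, with high co-receptors and little ligand. Compared with the other macrophages, Nrp1 was 5.73 times higher (4.32 to 7.46) and Nrp2 3.57 times (2.22 to 5.46), whereas Vegfa was 10.1-fold lower, with 2 UMIs in 19 cells. Of 7 VEGF genes tested, 2 were called higher and 1 lower, beside 31.3% of 11049 genes called, 23.9% higher and 7.38% lower, a wide background for so small a group. Among the hypoxia-induced genes 1 was higher, the histone demethylase Kdm3a (2.28 times, 0.733 to 5.40, 5 UMIs), and 10 were lower. Plxna1 and Plxnd1, semaphorin receptors that pair with neuropilins, were 3.91 and 3.89 times higher with 5 and 8 UMIs.

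Macrophages and tumor cells, the most numerous populations, were then compared. Vegfa was 2.35 times higher in macrophages (2.23 to 2.48), Nrp1 4.18 times (3.87 to 4.53), Flt1 73.5 times (37.5 to 164.8) and Kdr 53.3 times (12.9 to 471.8, 19 UMIs against 2). Flt1 and Kdr were still at only 8.56 and 1.38 CPM in macrophages, beside 1027 and 557 CPM in endothelial-like cells. Vegfb was 4.47-fold and Vegfc 11.5-fold lower in macrophages, and Nrp2 was 0.623 times its tumor level (0.573 to 0.676). Of the 9 genes, 4 were called higher and 2 lower, in a comparison in which 48.2% of 13655 genes were called, 20.7% higher and 27.6% lower. Pgf, Angpt2 and Nrp2 were not called. The Kdr ratio was 1.45 after thinning, which left 1 UMI on each side. Of the 14 listed further ligands, receptors and co-receptors, 9 could be tested, and 8 were lower and 0 higher in macrophages. Among these, the ligand Vegfd was at 0.128 times and the semaphorins Sema3a and Sema3c, which compete for or share neuropilins, at 0.0842 and 0.0635 times the tumor level. Of 10 other angiogenic factors, 5 were higher in macrophages, led by Pdgfb, which recruits pericytes (146 times), the chemokine receptor Cxcr4 (87.4) and Thbs1 (30.1). A further 4 were lower, led by the angiogenesis inhibitor Thbs2 (0.110) and the lipase inhibitor Angptl4 (0.170).

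**Figure D4:**
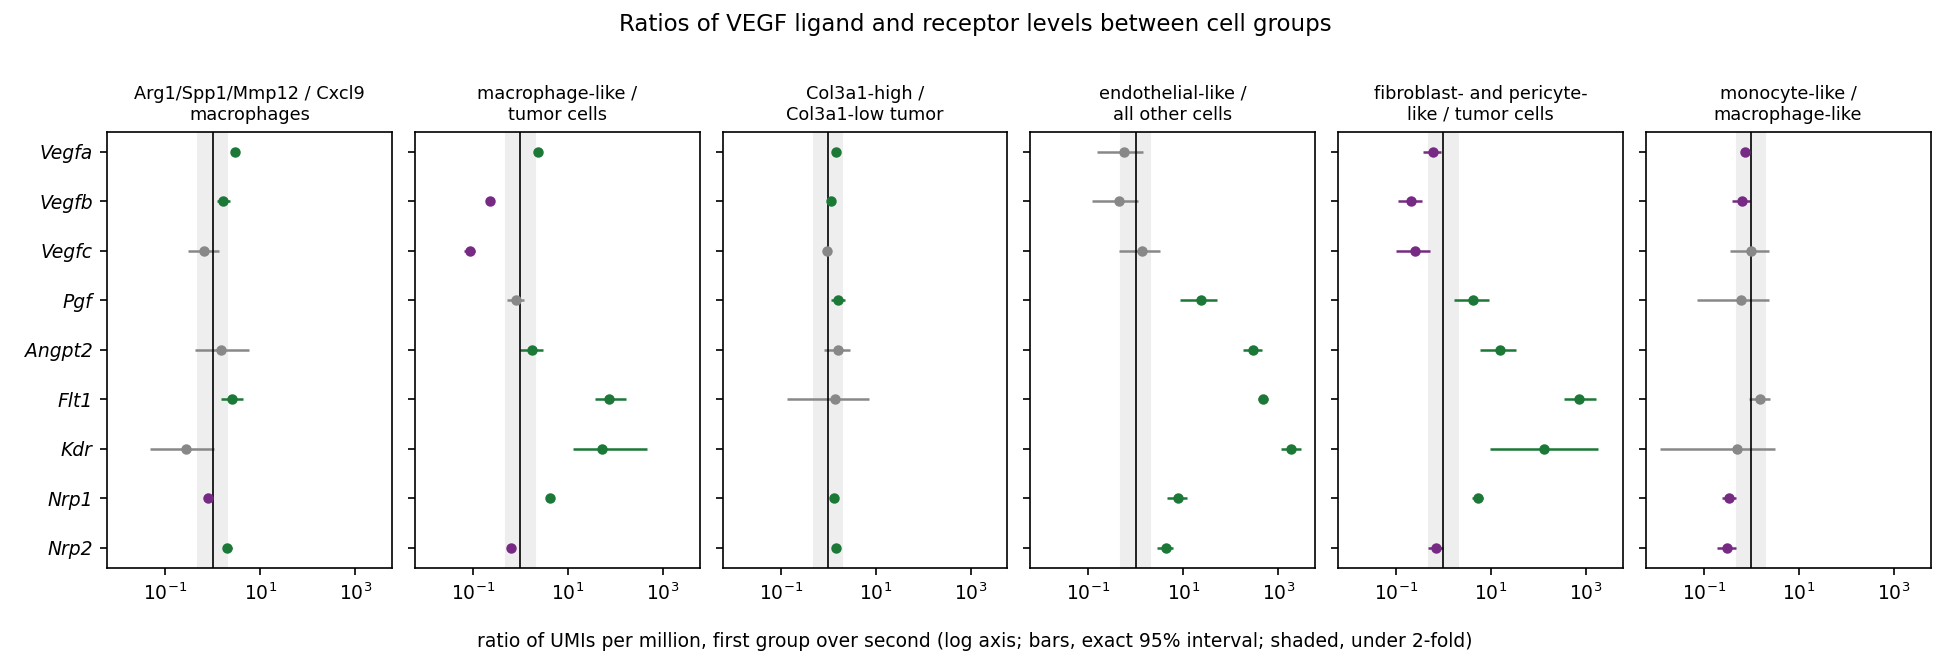
Ratio of the level of each VEGF gene in the first group to that in the second, on a log axis, for 6 comparisons. Bars are exact 95% intervals, the shaded band is under 2-fold, green and purple points have intervals above and below 1, and grey points have intervals that hold 1. Genes with 0 UMIs in a group have no point, and no point lies outside the band in the comparison of tumor cells by Col3a1.

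Within tumor cells the VEGF genes varied little with Col3a1. Col3a1-high cells had 1.44 times the Vegfa of Col3a1-low cells (1.35 to 1.54), 1.45 times the Nrp2 (1.37 to 1.54), 1.63 times the Pgf (1.17 to 2.22), 1.36 times the Nrp1 (1.196 to 1.54) and 1.18 times the Vegfb (1.12 to 1.24). Vegfc did not differ beyond counting error (0.949, 0.869 to 1.04). Of 7 tested genes 0 reached 2-fold in either direction, with 14.1% of 12893 genes called, 10.2% higher and 3.92% lower. Of the other pathway genes, 2 of 9 were higher in Col3a1-high cells, namely Sema3c (6.91 times) and the vessel-stabilizing ligand Angpt1 (3.50 times, 19 and 26 UMIs). The hypoxia gene Car9, a carbonic anhydrase, was 4.79 times higher.

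The Col3a1-high cells were of 2 clusters that differed in depth. The deeper one (424 cells, median 26514.5 UMIs) had 73.1 CPM of Vegfa and 94.3 of Nrp2, while the shallow one (112 cells, median 3700.5 UMIs) had 334 CPM of Vegfa (289 to 383) and 258 of Nrp2 (219 to 301). The shallow cluster also carried 70677 CPM of Malat1 against 7437 in the deeper one, and a median mitochondrial share of 7.60% against 2.58%. Vegfb went the other way, with 66.5 against 135.8 CPM. Without the shallow cluster, the Vegfa ratio of Col3a1-high to Col3a1-low cells was 1.24 (1.15 to 1.33). Malat1 and mitochondrial RNA moved with Vegfa and Nrp2 here, and their part was not tested.

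Cycling Col3a1-low tumor cells had less Vegfa than the other Col3a1-low cells. The ratio was 0.650 (0.609 to 0.693) for Vegfa, 0.557 (0.404 to 0.768) for Pgf and 0.764 (0.710 to 0.821) for Vegfc, while Vegfb was at 1.13 (1.08 to 1.19). Of 7 tested genes 0 were called, beside 5.81% of 12531 genes, 3.71% higher and 2.1% lower. The hypoxia-induced genes Ndrg1 and Ankrd37 were lower in cycling cells, at 0.428 and 0.480 times. The Vegfa ratio was 1.07 at a clustering resolution of 0.8, which ends the difference, and between 0.517 and 0.703 in the other 6 alternatives.

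Endothelial-like cells were set against all other kept cells. Kdr was 1840.3 times higher (1145 to 3011), Flt1 479.8 times (372 to 615), Angpt2 293 times (182 to 456), Pgf 23.8 times (8.65 to 52.5), Nrp1 7.61 times (4.64 to 11.8) and Nrp2 4.25 times (2.80 to 6.19). Vegfa and Vegfb had 4 UMIs each, with ratios of 0.565 (0.154 to 1.45) and 0.442 (0.1204 to 1.13), whose intervals held 1. In all, 6 of the 9 genes were called higher and 1, Vegfb, lower, beside 31.2% of 14178 genes, 23.2% higher and 7.93% lower. Malat1 was at 18602 CPM in these cells and 5327 CPM in all kept cells, and its part was not tested. As clusters are named from their own genes, this comparison describes the cells and is no test. Of 13 other pathway genes tested, 8 were higher, among them the angiopoietin receptor Tek (13 UMIs of 22), its partner Tie1 (31 of 35), the lymphatic receptor Flt4 (22 of 39) and Sema3f (25 of 69). Of 13 angiogenic factors 7 were higher, including the tip cell genes Dll4 (38 of 40 UMIs), Esm1 (14 of 31) and Apln (9 of 257). In the hypoxia list 12 of 20 genes were lower and 3 higher, namely Pfkfb3, a regulator of glycolysis (12.6 times), the stress gene Ddit4 (6.62) and Ndrg1 (3.58). Of the lower genes, only Bnip3, Pgk1, Ldha, Aldoa and Mif had intervals below 1. The intervals of Hk2, Pdk1, Ankrd37, P4ha1, P4ha2, Ero1l and Hilpda, with between 1 and 6 UMIs each, held 1.

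Fibroblast-like and pericyte-like cells together were compared with tumor cells, as host stroma against cancer. Flt1 was 721 times higher (350.2 to 1668), Angpt2 15.4 times (5.95 to 33.8), Nrp1 5.27 times (3.98 to 6.85) and Pgf 4.27 times (1.70 to 8.95), while Vegfb was 4.84-fold and Vegfc 3.98-fold lower. Thus 4 of 8 tested genes were called higher and 2 lower, beside 30.8% of 13094 genes, 22.3% higher and 8.51% lower. The pericyte-like cells carried the higher Flt1, Angpt2 and Pgf of this result, while 36 of the 58 UMIs of Nrp1 were in fibroblast-like cells. All 7 UMIs of Pgf, all 7 of Angpt2 and 48 of 49 of Flt1 were in pericyte-like cells. Without the pericyte-like cells 3 rather than 6 VEGF genes passed 2-fold. Between the stromal types, Flt1 was 156 times higher in pericyte-like cells (26.7 to 6299), Nrp1 1.99 times (1.11 to 3.47), and Vegfa 0.326 times (0.0369 to 1.34). There, 1 of 4 tested genes was called higher and 1 lower, beside 29.6% of 4165 genes, 11.8% higher and 17.9% lower. The fibroblast-like cells held other members of the pathway. All 75 stromal UMIs of Vegfd and all 145 of Sema3c were in fibroblast-like cells, as were 87 of 88 of the chemokine Cxcl12, whereas Pdgfa was 26.5 times higher in pericyte-like cells (12.7 to 63.8). In fibroblast-like cells Rhox5 and Shisal2b were at 30.6% and 9.32% of their tumor cell level, Vegfb at 25.1% and Vegfc at 32.8%. The part of free tumor RNA in these levels was not tested.

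Monocyte-like cells, the type from which many tumor macrophages arise, had the ligand with few co-receptors. Compared with macrophages, Nrp1 was 2.91-fold and Nrp2 3.23-fold lower, Vegfa was at 0.744 times (0.629 to 0.874), and Flt1 at 1.54 times (0.896 to 2.51). Of 8 tested genes 0 were called higher and 2 lower, beside 13.9% of 11205 genes, 3.16% higher and 10.8% lower. Thbs1 was 3.13 times higher in monocyte-like cells.

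Vegfa was then set beside the hypoxia list within each group. Cells were ordered by the share of their UMIs in the 20 hypoxia-induced genes and divided at the median. Vegfa, which is not in the list, was higher in the upper part of all 8 groups examined, by 1.46 times in Col3a1-high (1.28 to 1.66), 1.60 in cycling and 1.87 in other Col3a1-low tumor cells, by 1.68 in Arg1/Spp1/Mmp12, 1.89 in Fosb-high, 2.20 in Cxcl9 and 2.75 in proliferating macrophages, and by 2.45 in monocyte-like cells (1.71 to 3.56). Vegfb was also higher in the upper part of Col3a1-high (1.34, 1.21 to 1.48), cycling (1.17, 1.10 to 1.24) and other Col3a1-low tumor cells (1.17, 1.07 to 1.27) and of proliferating macrophages (1.68, 1.04 to 2.77), and its interval held 1 in the remaining 4 groups. Nrp2 was higher in that of Fosb-high macrophages (2.14, 1.30 to 3.65), and Vegfc lower in that of proliferating macrophages, with 1 UMI against 9. Nrp1 went the other way, with ratios between 0.546 and 0.848, and the interval held 1 in the Fosb-high, Cxcl9 and monocyte-like groups. Median depth differed between the parts by most in Col3a1-high cells (12286 and 26841.5 UMIs), and its part was not tested. Across cells the Spearman correlation of Vegfa level and list share was between 0.174 and 0.419, given as a description of cells of 1 library. Between groups the order was looser. Arg1/Spp1/Mmp12 macrophages had the highest summed level of the list (8139 CPM), but Fosb-high macrophages reached their higher Vegfa at 5393 CPM, about that of cycling tumor cells (5395 CPM).

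**Figure D5:**
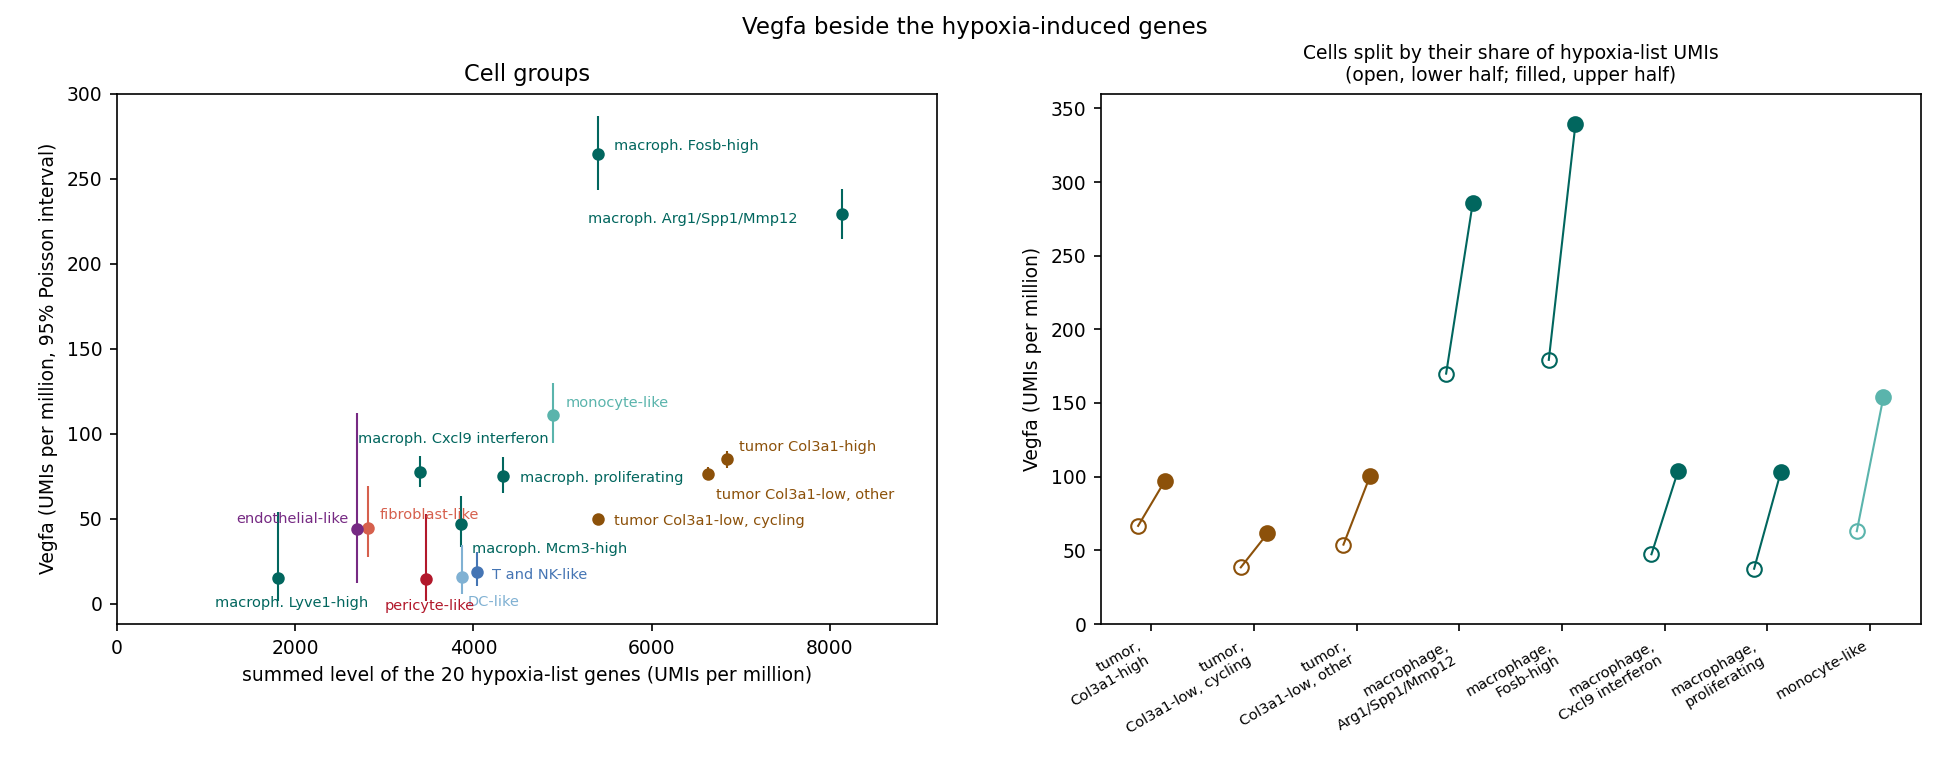
Left, Vegfa level (CPM with exact 95% Poisson interval) against the summed level of the 20 hypoxia-list genes in each named group. Right, Vegfa level in the cells with the lower (open) and upper (filled) share of hypoxia-list UMIs in 8 groups. Vegfa is higher in the upper part of each group, and the macrophages led by Fosb or by Arg1, Spp1 and Mmp12 lie above the tumor cells.

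Over the 16 named groups, the gene whose log2(CPM + 10) was most like that of Vegfa among 11942 candidates was the glycolytic enzyme Hk2 (Pearson r = 0.83), followed by Tmx4 (0.79) and the mitophagy gene Bnip3 (0.78). For Vegfb it was the corepressor Rcor2 (0.97), for Vegfc Farsa, a tRNA synthetase subunit (0.94), and for Nrp2 Vapb (0.95). For Kdr and Flt1 the closest were the endothelial markers Egfl7 (0.96) and Esam (0.98), for Angpt2 the matrix protein Tinagl1 (0.98), for Pgf the basement membrane protein Nid2 (0.97) and for Nrp1 the stress gene Sesn1 (0.96). These are descriptions over groups of 1 library, and those of Pgf, Angpt2, Flt1 and Kdr rest on the few vessel wall cells.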

How the data were processed

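Single-cell RNA was measured in 1 library of 5 pooled control MC38 tumors. For every called cell the authors deposited raw UMI counts of each gene, with no scaling of any kind. Cell Ranger 5.0.1 stands in the header of the file, while the study names version V3, and the labels give GRCm38 (mm10). The genes, lists and comparisons were chosen with earlier results of these data known.

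Cells with under 200 genes (0 cells) or over 20% mitochondrial UMIs (667 cells) were left out, and 172 cells (3.71%) with the highest scores against simulated doublets (2 per cell, at a rate of 0.8% per 1000 cells) were removed. Each cell was brought to 10000 counts on a log scale, and 2000 variable genes, without the 57 VEGF, pathway, hypoxia and angiogenic genes, went through 30 principal components, a graph of 20 neighbors and Leiden clustering at 0.5. Shallow clusters (median depth under 0.333 of that of the library) and myeloid cells were clustered again with 1000 genes and 15 components, at resolutions of 1 and 0.5. A name needed 3 listed markers with at least 5 UMIs and 2 times the level of other cells, tumor cells 5 times the macrophage level of Shisal2b and Rhox5. Myeloid states were named against the other myeloid cells only. Against all other kept cells, the Cxcl9 state had 2 of its 6 markers raised. The Fosb-high, Mcm3-high and Lyve1-high states did not meet this rule and were named after 1 leading gene each. Names so rebuilt can differ from those of the study.

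Levels are CPM of summed counts, with exact Poisson intervals for levels, exact conditional intervals for ratios and Clopper-Pearson intervals for shares, at 95%. A count of 0 was taken as 3 counts. Genes to be named were the 9 VEGF genes, up to 4 genes with most UMIs of each list or past 2-fold, the 3 genes most like each VEGF gene, and the markers. Fosb, Mcm3, Lyve1, Prox1, Ccl21a, Cd8a, Foxp3, Malat1 and the immediate early genes, the tumor rule, the floor in calls, the motifs, the split by hypoxia genes and the comparisons of monocytes, cycling cells, pericytes, Fosb-high and Lyve1-high macrophages were chosen after values were seen. The scripts were tested on simulated data. Alternatives were mitochondrial limits of 10% or none, 500 genes, doublets kept, listed genes kept, 3000 variable genes, 20 components, resolution 0.8, another seed, means over cells and thinning to 1000 UMIs. Thinning left out the 461 kept cells with under 1000 UMIs, 11 of the 27 endothelial-like cells among them. Clustering used leidenalg 0.10.2 and scikit-learn 1.9.0, and intervals scipy 1.17.1, under Python 3.11.15. Of the unnamed clusters, only 1 is described by its own values.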

Additional observations from a re-analysis of the deposited data

Results flagged for a closer look

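A cluster that received no name, and so entered the comparisons only among the other cells set against the endothelial-like ones, held Vegfa. Led by Xist and Gm42418 (77 cells, median 1780 UMIs), it had 318 CPM of Vegfa (235 to 420.3, 49 UMIs). That interval overlaps the one of the Fosb-high macrophage-like cells, at 264 CPM (243 to 287), and the level was below the 334 CPM of the shallower Col3a1-high tumor cluster. It also had 35314 CPM of Malat1 and a median mitochondrial share of 9.51%, beside 11113 CPM and 2.54% in the macrophage-like cells. The part of these in the Vegfa level was not tested. Nrp1 was at 32.4 CPM and Nrp2 at 58.4 CPM in this cluster, both between the lowest and highest named groups.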

How the results depend on the processing

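No paired analysis was possible because there is 1 library without replicates. Vegfa in Arg1/Spp1/Mmp12 against Cxcl9 macrophages, 2.97 as reported, was 2.32 at a mitochondrial limit of 10%, 2.29 with at least 500 genes, 3.82 with doublets kept, 4.23 with 3000 variable genes, 4.34 with 20 principal components, 1.93 at a resolution of 0.8, 4.03 with another seed and 2.42 after thinning to 1000 UMIs, always higher in the first. With the VEGF and listed genes kept for clustering no Cxcl9 state was found, so this ratio had no value. The comparisons of Fosb-high and Lyve1-high macrophages had only 2 alternatives, means over cells and thinning. Vegfa in Fosb-high against Cxcl9 macrophages lay between 2.76 and 3.63. Nrp1 in Lyve1-high against other macrophages lay between 5.01 and 9.53. These states were not followed through the other filters or clusterings. Vegfa in macrophages against tumor cells, 2.35, became 2.54 at the 10% limit, 2.18 without a limit, 1.83 as a mean over cells and 2.05 after thinning. The number of VEGF genes at 2-fold between Col3a1-high and Col3a1-low tumor cells, 0, became 1 without a mitochondrial limit, 1 with the listed genes kept, 1 with 20 components, 1 with means over cells and 2 after thinning. The Kdr ratio of endothelial-like cells, 1840.3, was 241 as a mean over cells and 457 after thinning, which kept 16 of the 27 cells. The number for stroma against tumor cells, 6, was 3 after thinning and 3 without the pericyte-like cells, an alternative chosen after the data were seen. The cause of each move was not tested. Of 611 further values of single genes, 489 moved by less than the counting interval and 122 by more. The few UMIs of Kdr, Angpt2 and Pgf and the 27 endothelial-like and 12 pericyte-like cells limit what can be told of these genes.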
